A study of Mus musculus with 6 samples.

Results

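The transcripts of 6 secreted effectors, the cytokine gene Ifng, the chemokine genes Ccl3, Ccl4 and Cxcl10 and the granzyme genes Gzmm and Gzme, were followed in Themis cKO and wild-type OT-I T cells. They were taken by gene symbol from a deposited table of 854 genes, and all 6 symbols were found. OT-I is a mouse line in which CD8 T cells carry a transgenic T-cell receptor (TCR) for an ovalbumin peptide, and Themis is a signalling protein of T cells known for its role in thymocyte selection. One group was Themis cKO (a conditional knockout) OT-I cells and the other wild-type (WT) OT-I cells, with 3 libraries each. Both were naive cells from spleen and lymph nodes, kept for 3 days in culture with IL-2 at 1 µg/ml. The labels give no age or sex of the mice and no Cre driver for the knockout, and not how many mice or cultures stand behind the 3 libraries of each.

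Effector CD8 T cells act on other cells largely through what they secrete. Interferon gamma, the type II interferon, signals through its own receptor and raises antigen presentation and antimicrobial genes in the cells that receive it. CCL3 and CCL4, also called MIP-1 alpha and MIP-1 beta, attract monocytes and activated T cells. CXCL10 is itself induced by interferons and attracts cells that carry CXCR3, a receptor of activated T cells and NK cells. Granzymes are serine proteases stored in cytotoxic granules. Gzmm encodes a granzyme known from NK cells and some T cells, and Gzme belongs to a cluster of closely related granzyme genes in the mouse.

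Ifng and the 3 chemokine genes were several-fold lower in Themis cKO libraries than in WT libraries, while Gzmm was higher. Cxcl10 fell most, by 25.9-fold, against 7.64-fold for Ccl3, 6.91-fold for Ifng and 6.21-fold for Ccl4, and Gzmm rose 2.50-fold. Gzme was barely detected in either genotype and could not be tested in the fit over the whole table. Of the 5 genes tested, 4 were lower and 1 was higher (adjusted p under 0.05 by the quasi-likelihood test of edgeR, with Benjamini-Hochberg adjustment). These counts carry no weight of their own, since 100% of the 794 tested genes in the table passed, 75.8% lower and 24.2% higher. The log2 ratios of mean scaled counts leave an empty stretch from -0.94 to 1.06, so the 854 genes appear to have been selected for their fold change in these libraries, although no label states it.

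Values below are scaled counts, that is, the deposited estimated counts divided by a factor of 0.944 to 1.04 that levels the libraries within each genotype. The genotypes themselves were taken at equal depth, because the 854 genes alone cannot show the depth of a library. Scalings that centre the table on itself moved the median log2 fold change of all tested genes up by 1.29, leaving Ifng at -1.50 or -1.49, Ccl3 at -1.64, Ccl4 at -1.34, Cxcl10 at -3.41 or -3.40 and Gzmm at 2.61 or 2.62, with each direction and call kept. Summed over the table, the counts came to between 424605 and 437437 in cKO libraries and between 946766 and 1054442 in WT libraries, and the 6 genes made up 0.359% to 0.434% of those sums in cKO libraries and 1.33% to 1.66% in WT libraries. Themis, the targeted gene, averaged 1140 ± 141 scaled counts in cKO libraries and 5423 ± 420 in WT libraries (SD, n = 3 each), lower as labelled, though whether these reads lie in the deleted part of the gene is not known. None of the 12 listed CD8 T cell markers was among the 854 genes, so the labelled cell type could not be checked against them. In bulk RNA, fewer cells that make a transcript and less of it per cell cannot be told apart.

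The stretches of DNA in front of 3 of these genes are shown because the gene that fell most, the cytokine gene and the gene that rose differ in the motifs they carry. Each is the 250 bases upstream of the RefSeq transcription start on GRCm38.p6, written 5′ to 3′ in the direction of the gene, for Cxcl10 (chr5:92348890-92349139, minus strand), Ifng (chr10:118440796-118441045, plus strand) and Gzmm (chr10:79688770-79689019, plus strand). Capitals mark matches on either strand to an interferon-stimulated response element (GAAA, any 2 bases, GAAA), an NF-kB site (GGGA, any 4 bases, CC), an AP-1 site (TGANTCA), a T-box half-site (TCACACC), a gamma-activated site (TTCNNNGAA) or a TATA box (TATAAA).
Cxcl10: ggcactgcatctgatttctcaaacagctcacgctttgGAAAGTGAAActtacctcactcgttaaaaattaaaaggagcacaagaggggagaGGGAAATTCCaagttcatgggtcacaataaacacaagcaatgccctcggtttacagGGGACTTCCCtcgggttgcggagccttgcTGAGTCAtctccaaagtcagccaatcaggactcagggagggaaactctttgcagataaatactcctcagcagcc
Ifng: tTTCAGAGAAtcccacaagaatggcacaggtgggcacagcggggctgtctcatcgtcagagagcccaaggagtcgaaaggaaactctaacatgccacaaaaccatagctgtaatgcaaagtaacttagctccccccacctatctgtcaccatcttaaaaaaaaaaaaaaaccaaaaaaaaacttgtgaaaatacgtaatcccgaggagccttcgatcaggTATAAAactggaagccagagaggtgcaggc
Gzmm: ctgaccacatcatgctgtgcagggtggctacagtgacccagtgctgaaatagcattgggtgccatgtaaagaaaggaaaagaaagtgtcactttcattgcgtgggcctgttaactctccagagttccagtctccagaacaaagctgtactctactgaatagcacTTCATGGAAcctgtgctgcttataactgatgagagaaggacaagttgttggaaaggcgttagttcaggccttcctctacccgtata

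The Cxcl10 window held an interferon-stimulated response element at positions -213 to -204 from the start. It also held NF-kB sites at -159 to -150 and -103 to -94, the second of which matches on both strands, and an AP-1 site at -74 to -68. The same letters were present in 2.98% of 32851 RefSeq windows of this length for the interferon element, 17.6% for the NF-kB site and 6.75% for the AP-1 site. The Ifng window held a gamma-activated site at -249 to -241 and a TATA box at -30 to -25, and the Gzmm window a gamma-activated site at -86 to -78; 7.02% of all windows held a gamma-activated site and 12.4% a TATA box. None of the 5 windows that could be matched (Ifng, Ccl3, Cxcl10, Gzmm and Gzme) held the T-box half-site, which 3.33% of all windows did. The NFAT core GGAAA, left in lower case, was present in all 5 and in 55.6% of all windows, and in the Cxcl10 window 2 of its 3 matches overlap the interferon element or an NF-kB site. The Ccl3 and Gzme windows held none of the other motifs.

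Ifng had 256, 305 and 352 scaled counts in cKO replicates 1 to 3, against 2153, 2057 and 2098 in WT replicates 1 to 3. The highest cKO library lay far below the lowest WT library, and 99.4% of the 854 genes likewise showed no overlap between genotypes. Means were 304 ± 48.3 in cKO libraries and 2102 ± 47.9 in WT libraries (SD, n = 3 each), a log2 fold change of -2.79 (SE 0.13, edgeR adjusted p = 3.95e-08). The absolute spread was alike, but relative to the mean it was 15.9% among cKO libraries and 2.28% among WT libraries. The gene (Gene ID 15978) lies on chromosome 10 at 118441046 to 118445892 of GRCm38 in the GENCODE M21 annotation, and its principal transcript has 4 exons. It overlaps the GENCODE entry Gm49751 on the same strand; its counts were whole in all 6 libraries, which gives no sign of divided reads.

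Cxcl10 had 208, 235 and 248 scaled counts in cKO replicates 1 to 3, against 5356, 6029 and 6562 in WT replicates 1 to 3. The genotypes were thus separated by more than an order of magnitude, while the libraries within each stayed close together, with a relative spread of 8.82% in cKO and 10.1% in WT. The log2 fold change was -4.70 (SE 0.12, edgeR adjusted p = 2.02e-09). By the ratio of means Cxcl10 ranked 41st from the lowest of the 854 genes, ahead of Ccl3 at 126, Ifng at 142 and Ccl4 at 158. The gene (Gene ID 15945) lies on the minus strand of chromosome 5 at 92346638 to 92348889, with 4 exons in its principal transcript, inside the span of Art3 on the opposite strand. Art3, which encodes an ADP-ribosyltransferase family protein, had 1 count over the cKO libraries and 19 over the WT libraries (ratio of WT over cKO 19.0, exact 95% Clopper-Pearson interval 3.02 to 789, counting error only). No source used here states whether the counting used strand. Both genes had whole counts in all 6 libraries, which gives no sign of reads divided between them, and the counts of Art3 were few beside those of Cxcl10.

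Ccl3 had 684, 516 and 429 scaled counts in cKO replicates 1 to 3, against 3656, 3573 and 5227 in WT replicates 1 to 3. Ccl4 had 483, 340 and 263 in cKO replicates 1 to 3, against 2032, 1870 and 2841 in WT replicates 1 to 3. For either gene WT replicate 3 stood above the other WT libraries and cKO replicate 1 above the other cKO libraries. The genotypes did not overlap for either gene, as for 99.4% of the 854 genes. The log2 fold change was -2.93 for Ccl3 (SE 0.20, edgeR adjusted p = 4.95e-07) and -2.63 for Ccl4 (SE 0.23, edgeR adjusted p = 3.31e-06). Ccl3 (Gene ID 20302) lies on the minus strand of chromosome 11 at 83647844 to 83649355 and Ccl4 (Gene ID 20303) on the plus strand at 83662584 to 83664683, each with 3 exons.

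The counts of these neighbouring chemokine genes were not counted independently of each other. Neither gene had a whole number of reads in any of the 6 libraries, but their sum was whole, within 0.005, in all 6. No other gene of the table formed such a sum with Ccl3 or Ccl4, and Ifng, Cxcl10 and Gzmm were whole by themselves in all 6 libraries. The split of reads between Ccl3 and Ccl4 is therefore an estimate, and how many reads it concerns is not known. Their GENCODE transcripts share an exact run of no more than 9 bases on the same strand and 10 bases on opposite strands. In RefSeq on GRCm38.p6, however, the Ccl4 gene spans 83648624 to 83664683 and overlaps Ccl3, which spans 83647843 to 83649378; the part of that overlap in the shared reads was not tested. Counted as 1 gene, the pair averaged 905 ± 241 scaled counts in cKO libraries and 6400 ± 1450 in WT libraries, 7.07-fold lower, at a log2 fold change of -2.82 (SE 0.21, edgeR adjusted p = 8.98e-07). This sum was formed after the counts had been seen.

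Gzmm went the other way. It had 224, 195 and 244 scaled counts in cKO replicates 1 to 3, against 107, 71.8 and 86.4 in WT replicates 1 to 3. The lowest cKO library was well above the highest WT library, in a table where 99.4% of the genes showed no overlap. The means were 221 ± 24.9 in cKO libraries and 88.4 ± 17.7 in WT libraries (SD, n = 3 each), a log2 fold change of 1.32 (SE 0.19, edgeR adjusted p = 7.88e-05). Gzmm (Gene ID 16904) lies on chromosome 10 at 79689020 to 79695261 and its principal transcript has 5 exons. Among genes by ratio it ranked 140th from the highest of the 854.

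Markers of NK cells moved in the same direction as Gzmm. Of 21 NK cell markers listed, 9 were in the table and all 9 rose, against 24.2% of all tested genes. Their median log2 fold change was 1.38, beside 1.45 over all 192 tested genes that were higher, while in the authors' deposited table their log2 values ran from 1.49 for Klrb1c to 1.9997 for Ncr1, each further from 0 than fitted here. The activating receptor gene Ncr1 had a log2 fold change of 1.62, the adaptor gene Tyrobp 1.60, and the lectin-like receptor genes Klri2 and Klrb1c 1.32 and 1.23; none of the 9 was at 0 in any genotype. The summed scaled count of the 9 was 2698, 1902 and 1516 in cKO replicates 1 to 3, against 800, 597 and 920 in WT replicates 1 to 3. Gzmm was highest in cKO replicate 3, where that sum was lowest among cKO libraries, and lowest among WT libraries in replicate 2, where the sum was lowest too. Ccl3 and Ccl4 ranked the libraries of each genotype in the same order as that sum did. Between genotypes both chemokine genes were lower in cKO libraries, while the sum was higher. The part of NK-type cells in the Gzmm, Ccl3 and Ccl4 results was not tested.

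Gzme was close to the limit of detection. It had estimated counts of 0, 1.28 and 0.81 in cKO replicates 1 to 3, against 5.19, 3.31 and 10.96 in WT replicates 1 to 3. Rounded, these come to 2 reads over the cKO libraries and 19 over the WT libraries, a ratio of WT over cKO of 9.50 (exact 95% Clopper-Pearson interval 2.29 to 84.1, counting error only). The two-sided exact permutation test over libraries gave p = 0.1, the smallest that 3 against 3 allows. Gzme (Gene ID 14942) lies on the minus strand of chromosome 14 at 56117626 to 56120625, with 5 exons. Its count is also uncertain because its transcript shares exact runs of 49 to 96 bases with Gzmc, Gzmd, Gzmf, Gzmg and Gzmn, the longest with Gzmd, and it was whole in 1 of the 6 libraries.

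**Figure D1:**
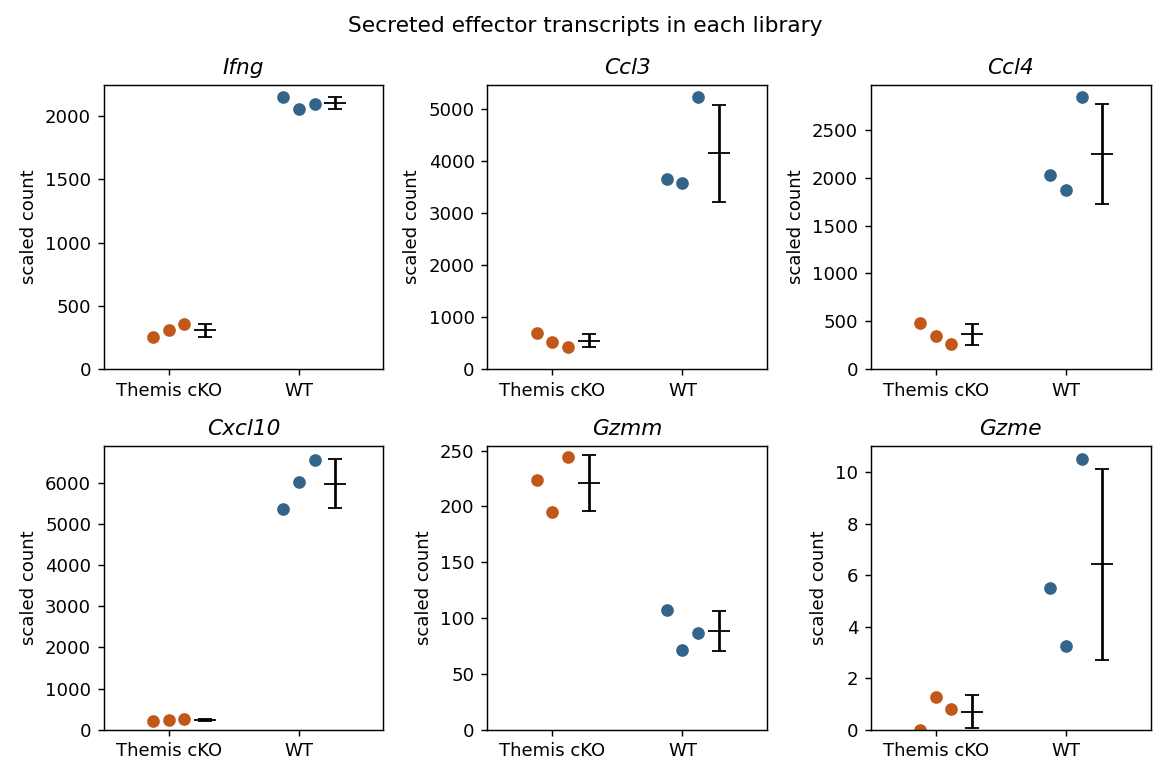
Scaled counts of each gene (y axis, linear, starting at 0) in the 3 Themis cKO and 3 WT libraries (points), with the mean and SD of each genotype beside them (black). The cKO points lie below the WT points for Ifng, Ccl3, Ccl4, Cxcl10 and Gzme and above them for Gzmm, whose cKO libraries sit between 195 and 244.

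Corrected for transcript length, the order of the genes differed between the genotypes. In cKO libraries Ccl3 stood at 709 ± 169 scaled reads per kilobase of its principal transcript, Ccl4 at 548 ± 169, Ifng at 252 ± 40.0, Cxcl10 at 211 ± 18.6, Gzmm at 172 ± 19.3 and Gzme at 0.756 ± 0.698 (SD, n = 3 libraries). In WT libraries Cxcl10 stood at 5468 ± 552 and Ccl3 at 5421 ± 1216, followed by Ccl4 at 3405 ± 788, Ifng at 1740 ± 39.7, Gzmm at 68.7 ± 13.8 and Gzme at 7.01 ± 4.06. Cxcl10 was thus level with Ccl3 at the top in WT libraries and overlapped with Ifng, below Ccl3 and Ccl4, in cKO libraries. Neighbours whose libraries overlapped were Ccl3 and Ccl4, and Ifng and Cxcl10, in cKO libraries, and Cxcl10 and Ccl3 in WT libraries; the levels of Ccl3 and Ccl4 rest on an estimated split of reads. Between Ifng and Gzmm a wide gap in WT libraries narrowed to 212 to 292 against 151 to 190 reads per kilobase in cKO libraries.

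The ratio of 1 gene to another within a library does not depend on how the libraries are scaled. There were 1.23, 1.30 and 1.42 Ifng reads per Cxcl10 read in cKO replicates 1 to 3, against 0.402, 0.341 and 0.320 in WT replicates 1 to 3. Every cKO library held more Ifng than Cxcl10 reads and every WT library fewer, a log2 difference of 1.90 between the genotypes. Relative to Cxcl10, Ccl3 and Ccl4 were likewise higher in every cKO library, with log2 differences of 1.76 and 2.04. By these ratios the deficit of Cxcl10 in cKO libraries was larger than that of the other 3 genes at any depth.

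Ifng, Ccl3 and Ccl4 fell to a similar extent but not in step from library to library. There were 0.374, 0.591 and 0.820 Ifng reads per Ccl3 read in cKO replicates 1 to 3, against 0.589, 0.576 and 0.401 in WT replicates 1 to 3. These ratios overlapped between genotypes and their log2 difference was 0.14; for Ifng over Ccl4 it was -0.14. The cKO library with the most Ifng, replicate 3, had the least Ccl3 and Ccl4, and the cKO library with the least Ifng, replicate 1, had the most. The Ccl3 to Ccl4 ratio was 1.42, 1.52 and 1.63 in cKO replicates 1 to 3, against 1.80, 1.91 and 1.84 in WT replicates 1 to 3. It was a little lower in every cKO library, with a log2 difference of -0.28, and rests on the estimated split of shared reads.

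Gzmm and Ifng were further apart in WT libraries than in cKO libraries. Ifng reads outnumbered Gzmm reads 1.14, 1.57 and 1.44 to 1 in cKO replicates 1 to 3, against 20.1, 28.7 and 24.3 to 1 in WT replicates 1 to 3. For Cxcl10 over Gzmm the ratios were 0.932, 1.21 and 1.02 in cKO replicates 1 to 3, against 50.04, 84.0 and 76.0 in WT replicates 1 to 3, a log2 difference of -6.03. Of the 10 pairs compared among the 5 tested genes, only the Ifng to Ccl3 and Ifng to Ccl4 ratios overlapped between genotypes. In the other 8 pairs the two-sided exact permutation test over libraries gave p = 0.1, the smallest that 3 against 3 allows, and 0.125 after Benjamini-Hochberg adjustment over the 10, so no pair could pass 0.05. For the overlapping pairs the exact permutation test gave p = 0.8. The pairs with Gzmm each set a gene that was higher against a gene that was lower. In a table that appears selected for fold change such pairs separate almost by construction, so their separation carries no weight of its own.

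**Figure D2:**
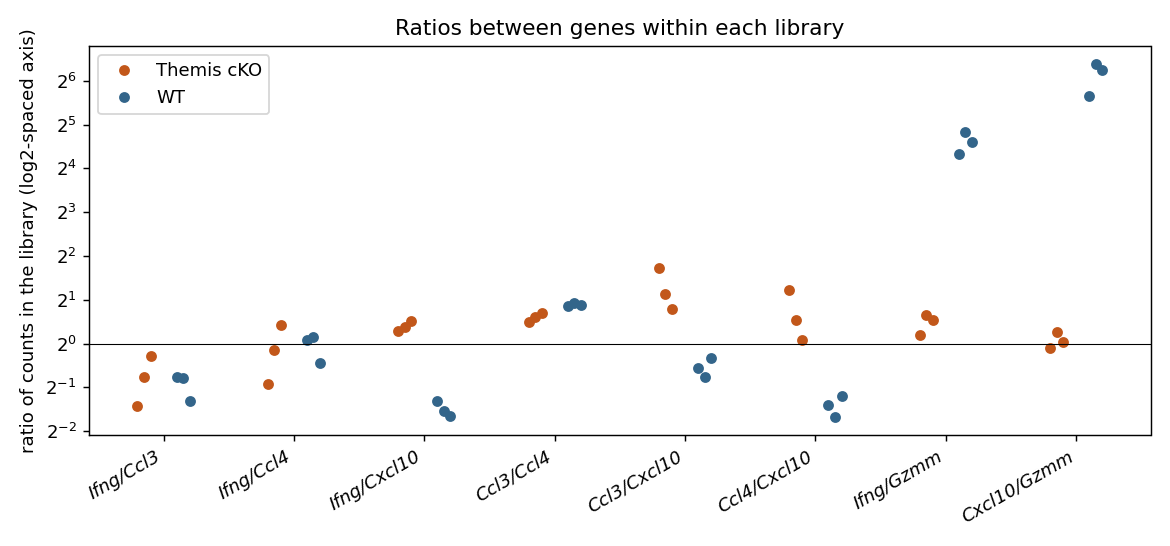
Ratio of the deposited counts of 2 genes in the same library (y axis, log2-spaced), for 8 of the 10 pairs, in Themis cKO libraries (left of each pair) and WT libraries (right). The ratios of Ifng to Ccl3 and to Ccl4 overlap between genotypes, while Ifng exceeds Cxcl10 in the cKO libraries alone (1.23 to 1.42 against 0.320 to 0.402 in WT).

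The authors' deposited table also holds fold changes of their own, headed as KO over WT at day 3 with IL-2. The headers do not name the libraries or the model behind these values. In the authors' deposited table Cxcl10 has a log2 value of -4.20 (q = 5.52e-06), Ccl3 -2.36 (q = 0.0258), Ifng -2.21 (q = 0.0138) and Gzmm 1.07 (q = 8.57e-07). Ccl4, at -2.04 (q = 0.0627), missed a q-value of 0.05 in the authors' deposited table, as did Gzme at -0.28 (q = 0.947). Thus 4 of the 6 genes passed, 3 lower and 1 higher, against 67.6% of the whole table in the authors' deposited values, 55.0% lower and 12.5% higher. All 5 values lay nearer to 0 than those fitted here, as did the table at large: the median gap was 0.51 for genes that were higher and -0.27 for genes that were lower (log2 ratio of mean scaled counts minus the authors' value).

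**Figure D3:**
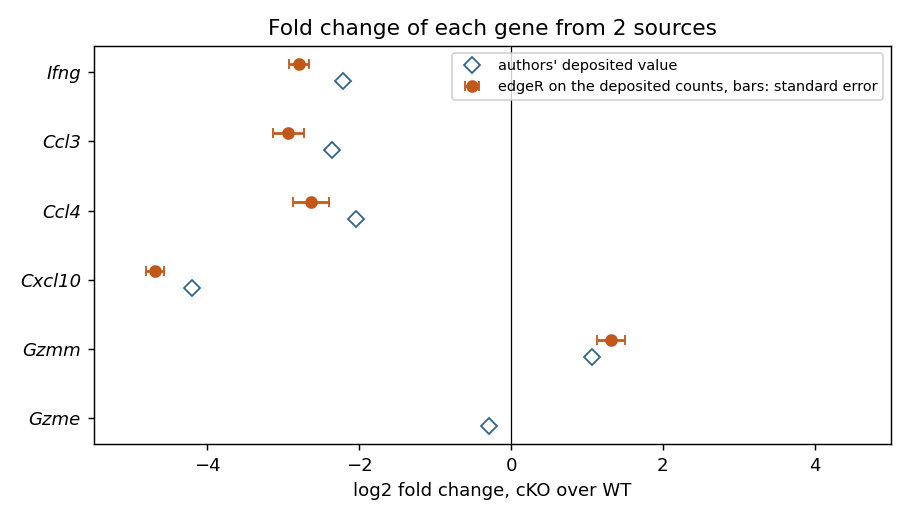
Log2 fold change of cKO over WT (x axis) for each gene, from the edgeR fit to the deposited counts (filled circles, bars of 1 standard error) and from the authors' deposited table (open diamonds). The deposited values are nearer to 0 for all 5 fitted genes, and Gzme, too low for the fit, has only the deposited value of -0.28.

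Few other chemokine or granule genes were in the table. Of 38 chemokine ligand genes listed, 6 were in it and 5 were tested. Of these 4 fell and 1 rose, against 75.8% and 24.2% of all tested genes. The median log2 fold change of -2.93 is the value of Ccl3 itself, since Ccl3, Ccl4 and Cxcl10 are 3 of the 5; the others, Cxcl9 and Ccl22, differed in opposite directions. Cxcl9, which encodes a further interferon-induced CXCR3 ligand, had 7.88 ± 3.34 scaled counts in cKO libraries and 89.8 ± 15.2 in WT libraries, with a log2 fold change of -3.53 (edgeR, adjusted p = 3.76e-06). Ccl22, a ligand of CCR4 known from dendritic cells, rose with 28.6 ± 12.6 scaled counts in cKO libraries and 7.45 ± 6.20 in WT libraries (log2 fold change 1.90, edgeR adjusted p = 0.0100), and its deposited q-value was 0.156. Pf4, a platelet chemokine gene too low to test, had 15 counts over the cKO libraries and 0 over the WT libraries, at least 5-fold higher when a group at 0 is set to a floor of 3 counts in all. Of 20 granzyme and cytotoxic granule genes listed, Gzmm and Gzme alone were in the table, so Gzmb, Prf1 and the rest were not analysed here.

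Among receptors of these products, Cxcr3, the receptor of CXCL9 and CXCL10, had 1688 ± 58.0 scaled counts in cKO libraries and 510 ± 52.9 in WT libraries, at a log2 fold change of 1.73 (SE 0.11, edgeR adjusted p = 3.25e-07). The receptor gene was thus higher in cKO libraries and its ligand genes Cxcl9 and Cxcl10 lower.

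Several genes that interferon gamma can induce, most of which also respond to type I interferon, were in the table. Of 28 listed, 7 were in the table and 6 were tested, all 6 of which fell, against 75.8% of all tested genes. Their median log2 fold change was -1.73, close to the -1.64 of all tested genes that were lower. Cxcl9 is among them as well as among the chemokine ligands. Cd274, a ligand gene of the PD-1 pathway, turned sign under the scalings centred on the table. It was then called higher in cKO libraries (log2 fold change 0.33 to 0.34, edgeR adjusted p of 0.0107 to 0.0156). The authors' deposited log2 value of Cd274 was -0.62 (q = 0.456). The guanylate-binding protein genes Gbp5, Gbp9 and Gbp10, which act in defence inside infected cells, had log2 fold changes of -1.91, -1.55 and -1.55. In the authors' deposited table their q-values were 0.0883, 0.0885 and 0.413, above 0.05. Gbp9 had 2474 ± 224 scaled counts in cKO libraries and 7250 ± 268 in WT libraries. Ubd, a ubiquitin-like gene, was at 0 in the cKO libraries and had 45 counts in the WT libraries, at least 15-fold lower by the same floor. Nos2, encoding inducible nitric oxide synthase and too low to test, had 0 counts in the cKO libraries and 27 in the WT libraries, at least 9-fold lower.

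Of 29 factors listed as regulators of Ifng or effector genes in T cells, the table held 9 and each of the 9 fell, against 75.8% of all tested genes. Their median log2 fold change was -1.45, beside -1.34 over all tested genes. Under the scalings centred on the table Prdm1, Junb, Bhlhe40 and Il12rb2 turned sign and the calls of Jun and Fos ended. Junb was then called higher in cKO libraries (log2 fold change 0.28 to 0.29, edgeR adjusted p of 0.0149 to 0.0209). So was Il12rb2 (log2 fold change 0.29, edgeR adjusted p of 0.0207 to 0.0221), while Prdm1 and Bhlhe40 were not called. Irf4, Egr2 and Egr3 alone stayed called as lower under these scalings. The genes that turned sign were lower in cKO in the authors' deposited table. Log2 values there were -0.88 for Prdm1 (q = 0.137) and -0.76 for Junb (q = 0.136). For Bhlhe40 and Il12rb2 they were -0.75 (q = 0.177) and -0.58 (q = 0.593). Irf4, a TCR-induced factor of effector differentiation, had 1469 ± 144 scaled counts in cKO libraries and 7565 ± 687 in WT libraries, a log2 fold change of -2.36. The TCR-induced factors Egr2 and Egr3 had log2 fold changes of -2.97 and -2.54. Jun and Fos, which encode AP-1 subunits, had -1.45 and -1.67. Under the scalings centred on the table the adjusted p was 0.192 to 0.203 for Jun and 0.190 to 0.213 for Fos (edgeR). The authors' deposited q-value was 0.185 for Jun but 6.77e-06 for Fos. For Irf4, Egr2 and Egr3 it was 0.00452, 0.000686 and 3.1e-14.

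Of 25 other cytokine genes of T cells listed, secreted or surface-bound, 4 were in the table and all 4 fell, against 75.8% of all tested genes. Their median log2 fold change of -1.37 was level with the -1.34 of all tested genes. Tnfsf14, which encodes LIGHT, had 75.2 ± 18.6 scaled counts in cKO libraries and 744 ± 27.3 in WT libraries, with a log2 fold change of -3.30 (edgeR, adjusted p = 9.87e-08). Csf1, the macrophage growth factor gene, had a log2 fold change of -1.61, Tnfsf8 -1.14 and Lif -1.11. Under the scalings centred on the table Tnfsf8 and Lif turned sign and the call of Csf1 ended (edgeR adjusted p of 0.109 to 0.113). The authors' deposited log2 value was -0.96 for Tnfsf8 (q = 0.000532) and -0.66 for Lif (q = 0.589). That of Csf1 was -1.34 (q = 0.0129).

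Markers of myeloid and dendritic cells, which can also make these chemokines, did not share 1 direction. Of 20 myeloid and dendritic cell markers, 4 were in the table. Mpeg1, a pore-forming protein gene of macrophages, fell with a log2 fold change of -2.91, as did the class II gene H2-Ab1 with -1.73, whose call ended under the scalings centred on the table (edgeR, adjusted p of 0.339 to 0.363). The integrin gene Itgax and the class II gene H2-Eb1 rose, with log2 fold changes of 1.28 and 1.67, although the libraries of the genotypes overlapped for H2-Eb1. The summed scaled count of the 4 was 325 to 356 in cKO libraries and 639 to 799 in WT libraries, and none of the 4 was at 0 in any genotype. The part of these cells in the chemokine results was not tested.

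**Figure D4:**
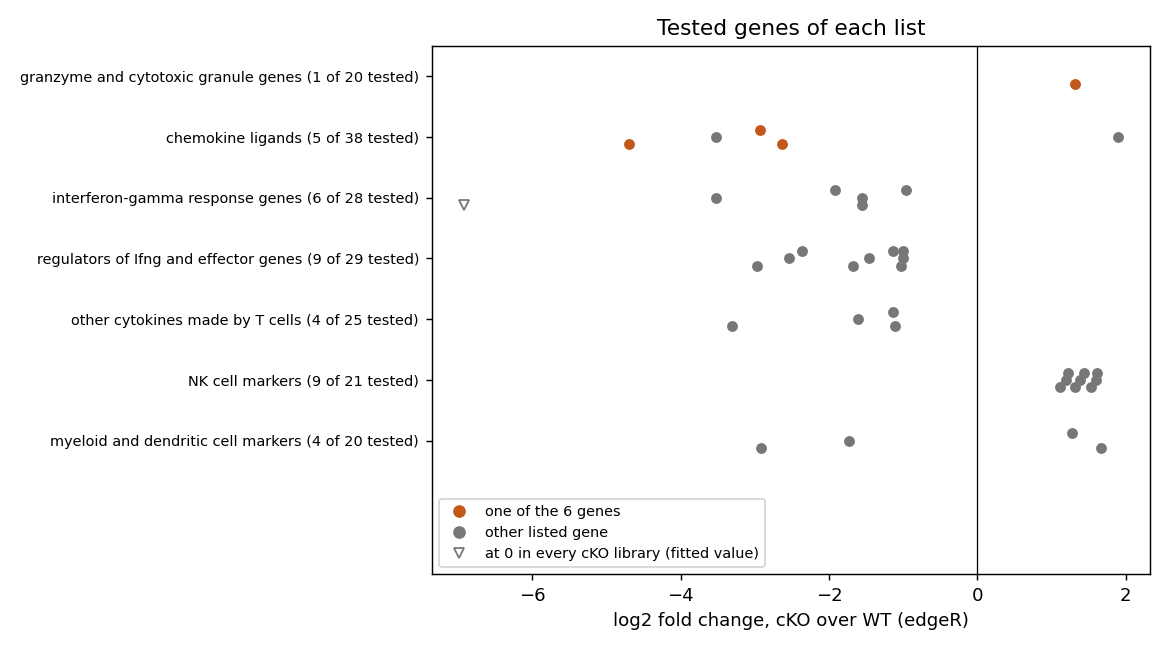
Log2 fold change of cKO over WT (x axis, edgeR) for the tested genes of each list (rows), with the secreted effector genes in orange and other listed genes in grey; the open triangle is Ubd, which is at 0 in every cKO library. Listed cytokines, regulators and interferon-gamma response genes lie left of 0 and NK cell markers right of it. Chemokine ligands and myeloid markers lie on either side. Under the scalings centred on the table the median of all tested genes lies 1.29 further right. Cd274, Prdm1, Junb, Bhlhe40, Il12rb2, Lif and Tnfsf8 then pass to the right of 0, although their deposited log2 values, not drawn, are below 0.

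Genes with the most similar profile were named by the smallest root mean square difference of log2 scaled counts, each gene centred on its own mean, over the 6 libraries and 479 candidate genes. For Ifng they were Unc13a (0.056), Mpeg1 (0.12) and Ndrg1 (0.13). For Ccl3 they were Oasl2, Isg20 and Chac1 (0.16 to 0.17), and for Ccl4 Gpt2, Chac1 and Phf11b (0.13 to 0.21). For Cxcl10 they were P4ha2, Ifi207 and Acod1 (0.19 to 0.24), and for Gzmm Spag1, Lmna and Vash1 (0.11). Unc13a, a vesicle-priming gene, had 73.7 ± 12.3 scaled counts in cKO libraries and 503 ± 41.5 in WT libraries, so its profile matched that of Ifng at a lower level. This likeness rests on 6 libraries of 2 genotypes that most genes of the table separate.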

How the data were processed

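Per the labels' protocols, RNA was column-purified from the cells of 3 Themis cKO and 3 WT samples and libraries were made for a DNBSEQ-G400. RSEM 1.2.12, DESeq2 1.4.5, HISAT2 2.0.4, Bowtie2 2.2.5 and the build GRCm38.p6 are named in the submitters' processing notes, with no role stated. The authors deposited 1 table of 854 genes with estimated counts (66.1% of the values are whole within 0.005) and, per the file headers, their log2 fold change of cKO over WT, p-value and q-value. How its genes were chosen and the library depths are not given in the sources used here.

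Counts were rounded and tested with edgeR 4.0.16 in R 4.3.3 (quasi-likelihood F-test, two-sided, genotype only, Benjamini-Hochberg over 794 genes passing the expression filter at a count of 10; 60 were left out). Library sizes were median-of-ratios factors within each genotype, over genes above 10 counts, with the genotypes at equal depth. Each standard error is the log2 fold change divided by the root of F. The fit was checked on simulated data, in which most genes were unchanged and the genotypes had equal depth. That check cannot bear on the unknown library depths or on a table selected for fold change. P-values measure only how far these libraries spread, possibly for technical reasons; chi-square per degree of freedom between replicates (6.10 to 18.9) gave no sign of a duplicated library.

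The 6 genes and the gene lists were chosen with earlier results of these data known. Named genes are the 6, Themis, up to 4 further genes per list with the smallest p, and the 3 nearest profiles per gene (mean of at least 100 scaled counts, pseudocount 1); Art3, Pf4, Nos2, Ubd, Fos, Cd274, Prdm1, Junb, Bhlhe40 and Il12rb2 were added after their values were seen. B cell markers are not reported here. Upstream sequences are RefSeq's on GRCm38.p6, and 842 of 854 gene IDs matched RefSeq. Transcript lengths are from GENCODE M21. Alternatives used DESeq2 1.42.0, limma 3.58.1, other scalings and filters, leaving out each library, and a replicate block. Further work used scipy 1.17.1, numpy 2.4.6, statsmodels 0.14.6, pandas 2.3.3 and matplotlib 3.10.9 in Python 3.11.15.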

Additional observations from a re-analysis of the deposited data

How the results depend on the processing

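In a table without log2 ratios between -0.94 and 1.06, a change of test, filter or library could hardly turn a direction. With that limit, the 6 genes kept their direction in all 87 runs of the alternatives, and their side of the threshold in 86. The exception was Gzme, which was called when no filter on low counts was applied (log2 fold change -3.02, edgeR adjusted p = 0.00939; under the other alternatives its exact permutation p was 0.1 or 0.2, the smallest possible). TMM and DESeq2 size factors, which centre the table on itself, moved the median log2 fold change of all tested genes by 1.29; the genes lower in cKO then numbered 218 and 217, against 602, and those higher 221 in either case, against 192. With 1 library left out at a time Ifng ranged from -2.90 to -2.67, Ccl3 from -3.13 to -2.70, Ccl4 from -2.89 to -2.40, Cxcl10 from -4.81 to -4.60, Gzmm from 1.204 to 1.44 and Gzme from -3.99 to -2.62. The uncalled log2 difference of Ifng over Ccl3 then ranged from -0.13 to 0.44, reversing without cKO replicate 3 or WT replicate 3, and that of Ifng over Ccl4 from -0.46 to 0.21, reversing without cKO replicate 1; the cause was not tested. Replicate numbers gave no sign of pairing (correlations of deviations of -0.06, -0.05 and -0.16, and no library correlated best with its own number). These correlations cannot show whether the samples were prepared in pairs. With a replicate block Cxcl10 stood at -4.70, and the genes higher and lower numbered 191 and 602. Adjusted over 16996 genes, the number implied by the authors' deposited p and q, 162 were higher and 558 lower. Gzme was too low for the block, DESeq2 and limma fits. Unknown library depths limit every fold change, and the few reads of Gzme limit its ratio.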

Other observations

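Gzme had the highest p-value of all 854 genes in the authors' deposited table, 0.855, beside estimated counts in the same table of 0 to 1.28 in cKO libraries and 3.31 to 10.96 in WT libraries. The authors' deposited table also lists 244 genes, 28.6% of it, with a log2 value between -1 and 1, whereas by mean scaled counts the log2 ratios skip the stretch from -0.94 to 1.06.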
